A study of Mus musculus with 6 samples.

Results

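The FGF receptor genes described here are the 5 genes Fgfr1, Fgfr2, Fgfr3, Fgfr4 and Fgfrl1, taken by name from the 19060 genes of the counts table, with no measured value used to choose them. They were followed in bulk RNA sequencing of the proximal end of the mouse incisor, a tooth that grows throughout life. The 3 control samples came from Fgfr1fl/fl mice, in which both Fgfr1 alleles are flanked by loxP sites but intact, and which the labels call wild type. The 3 mutant samples came from Gli1CreER;Fgfr1fl/fl mice, written Gli1-Cre;Fgfr1fl/fl in the labels. Tamoxifen was given to induce Cre, tissue was taken 1 week later, and the labelled age was 1 month. Cre was driven by Gli1, which marks mesenchymal stem cells of the incisor, so that only cells with Gli1 expression and their progeny could lose Fgfr1, while every other cell of the dissected tissue kept it. A gene-level count does not separate transcripts of a recombined allele from those of an intact one. The control genotype names no Cre, so effects of Cre itself cannot be told apart from those of Fgfr1 loss. In bulk RNA, fewer cells of a type and less RNA per cell cannot be told apart. The labels do not say whether each sample is 1 mouse or a pool, so the p-values measure the spread between these samples only.

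FGF receptors are membrane proteins with immunoglobulin-like domains outside the cell, which bind an FGF ligand together with heparan sulfate, and a tyrosine kinase domain inside it. Binding brings receptors together, and the active kinase signals through the adaptor FRS2 to the RAS and ERK cascade and through phospholipase C gamma and PI3 kinase. Fgfr1 to Fgfr4 encode such signalling receptors, whereas Fgfrl1 encodes a member that binds FGF but lacks the kinase domain. In the mouse incisor, FGF signals between epithelium and mesenchyme maintain the progenitor cells at the proximal end.

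The total count per sample was from 31060222 to 32712448 in the controls and from 5276557 to 11819576 in the mutants. The control samples were thus on average 3.38 times as deep. In the counts table, 30.3, 17.1 and 19.7% of genes were at 0 in mutant samples 1, 2 and 3. In the controls, 3.83 to 3.96% of genes were at 0. Sample titles end in S1, S2 and S3 for the control and in S2, S3 and S4 for the mutant samples, with S2 and S3 used in both groups. The meaning of these endings is not stated, and depth and any difference in library handling that follows the groups cannot be told apart from genotype. Pairs of control samples correlated at 0.944 to 0.973 in log2 CPM over the genes tested, pairs of mutant samples at 0.725 to 0.791. CPM denotes counts that edgeR brought to one library size with upper-quartile factors. Genotypes were compared with edgeR's quasi-likelihood test on 15826 genes that passed a filter on low counts, as did all 5 receptor genes. The study threshold denotes an unadjusted p under 0.05 together with a change of over 1.5-fold, and an adjusted p is one after Benjamini-Hochberg adjustment over all genes tested.

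The coding sequences of these receptors are alike, and a read of 75 bases could in principle be placed on the wrong one. In GENCODE M21 on GRCm38, no stretch of 75 bases in a transcript of one receptor gene occurred in a transcript of another. Fgfr1 shared 92 of its 10613 such stretches with another gene, all with the antisense gene Gm16159. Fgfr2 shared 241 of 11026 with Ctbp2, which the longest annotated models of Fgfr2 overlap, and Fgfr3 shared 778 of 7813, or 9.96%, with G630022F23Rik on the opposite strand. Fgfr4 and Fgfrl1 shared none. Whether the authors' counting used strand is not given in the sources used here, so reads in these stretches cannot be assigned with certainty, while full-length reads of different receptors differ in sequence. The closest coding stretches of 75 bases between Fgfr1 and 3 of the other receptor genes show how far they can be told apart, and are printed 5′ to 3′ in the direction of transcription with the differing bases in capitals.

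The closest stretch between Fgfr1 and Fgfr3 held 68 identical bases, with a longest identical run of 26. In Fgfr1 it lies within 1 exon at chr8:25570174-25570248 on the plus strand, and in Fgfr3 within 1 exon at chr5:33733889-33733963 on the plus strand.
Fgfr1: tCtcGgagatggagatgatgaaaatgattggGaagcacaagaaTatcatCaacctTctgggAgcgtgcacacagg
Fgfr3: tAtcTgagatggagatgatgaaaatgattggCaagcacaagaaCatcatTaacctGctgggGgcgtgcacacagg

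The closest stretch between Fgfr1 and Fgfr4 held 63 identical bases. The longest identical run anywhere between their coding sequences, outside this stretch, was 20 bases. The closest stretch joins 2 exons in each gene, within chr8:25570897-25572408 for Fgfr1 and within chr13:55166283-55166928 for Fgfr4, both on the plus strand.
Fgfr1: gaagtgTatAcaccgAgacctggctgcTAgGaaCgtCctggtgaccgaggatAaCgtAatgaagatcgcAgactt
Fgfr4: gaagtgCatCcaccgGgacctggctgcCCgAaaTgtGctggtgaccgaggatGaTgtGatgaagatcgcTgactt

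Fgfr1 and Fgfrl1 held only 48 identical bases in their closest coding stretch. The longest identical run anywhere between their coding sequences, outside this stretch, was 13 bases. The closest stretch lies within 1 exon of each gene, at chr8:25562191-25562265 and at chr5:108705272-108705346, both on the plus strand.
Fgfr1: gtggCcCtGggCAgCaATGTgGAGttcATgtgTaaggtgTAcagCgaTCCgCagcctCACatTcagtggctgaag
Fgfrl1: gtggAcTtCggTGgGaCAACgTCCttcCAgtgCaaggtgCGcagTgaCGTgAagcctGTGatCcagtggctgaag

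Fgfr1, the gene targeted by the deletion and the main FGF receptor of many mesenchymal cells, was lower in the mutant incisors but still present in each of them. It lies on chromosome 8 of GRCm38 from 25513654 to 25575718, on the plus strand. Its level was 529 CPM in control sample 1, 924 in control sample 2 and 434 in control sample 3, against 148, 318 and 262 CPM in mutant samples 1, 2 and 3. The highest mutant sample lay below the lowest control sample, so the groups did not overlap. The mean was 629 ± 260 CPM in the controls and 243 ± 86.3 CPM in the mutants (SD, 3 samples each), which left 38.6% of the control mean. The deposited counts behind these levels were 18168, 33635 and 15018 in the controls and 680, 3723 and 2596 in the mutants, so that counting error was small beside the spread between samples. The log2 change was -1.37 (95% interval -2.29 to -0.46), which corresponds to a level 2.59-fold lower. It passed the study threshold but not the adjustment for all genes (adjusted p = 0.0881, edgeR's quasi-likelihood test), whereas DESeq2 gave an adjusted p of 0.00323. Over the alternatives tried, the adjusted p ran from 0.00323 to 0.228. With an offset for transcript length and GC content the log2 change was -0.83.

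**Figure D1:**
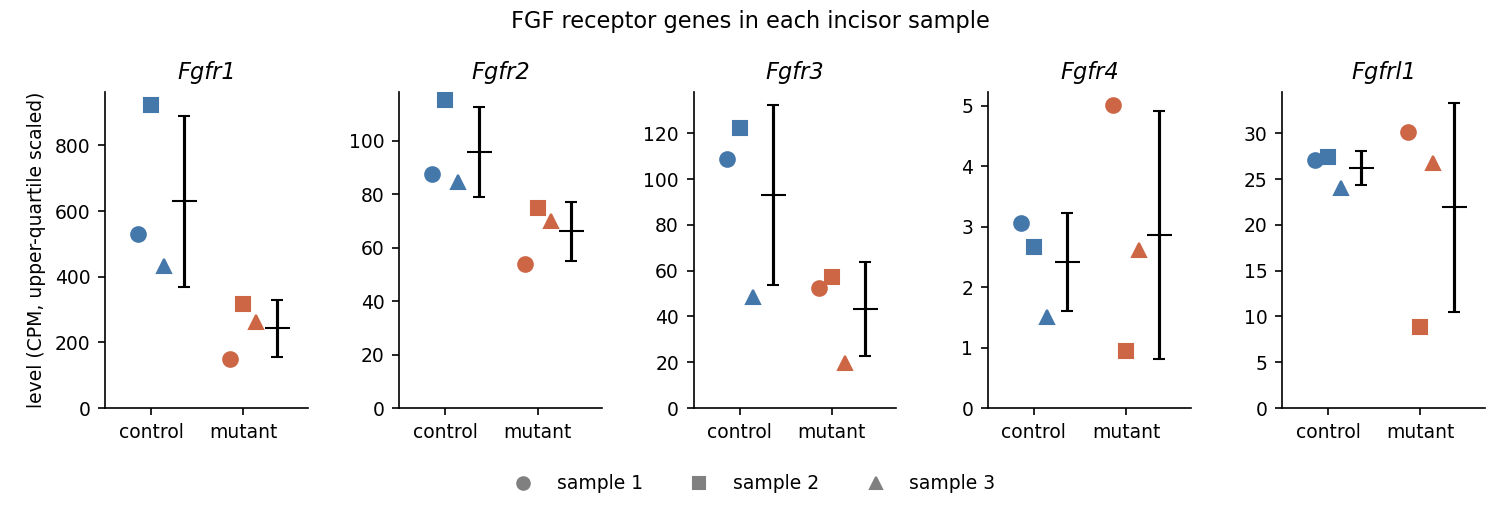
Level of each FGF receptor gene (CPM after upper-quartile scaling, linear axis from 0 with its own range per gene) in 3 control and 3 mutant incisor samples; symbols mark the sample number and black bars the mean and SD. For Fgfr1 and Fgfr2 all mutant samples lie below all control samples, while Fgfr3, Fgfr4 and Fgfrl1 overlap.

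Fgfr2 was the only other receptor gene without overlap between the groups, by a smaller margin. It encodes the receptor whose epithelial form binds FGF7 and FGF10, and lies on the minus strand of chromosome 7, from 130162451 to 130266808 in RefSeq on GRCm38. The control samples held 87.7, 115 and 84.6 CPM, and the mutant samples 53.7, 74.6 and 70.0 CPM. The lowest control and the highest mutant sample were thus close together. The means were 95.8 ± 16.8 and 66.1 ± 11.0 CPM (SD, n = 3 each), with a log2 change of -0.53 (95% interval -1.08 to 0.02). This did not pass the study threshold or the adjustment (adjusted p = 0.263, edgeR's quasi-likelihood test). With edgeR's TMM scaling, Fgfr2 passed the study threshold at a log2 change of -0.62. With total counts alone it also passed, at -0.80, when the median of all genes had moved to -0.30. With the length and GC offset the log2 change of Fgfr2 was -0.26 and did not pass. Of the 5 receptor genes, 2 did not overlap with the mutant lower, against a background of 16.3% of all genes tested.

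Fgfr3, known best as a brake on growth plate cartilage and also expressed in dental cells, had the second largest difference but varied widely within both groups. It lies on chromosome 5 from 33721674 to 33737068, on the plus strand. The control samples held 109, 122 and 48.5 CPM and the mutant samples 52.6, 57.2 and 19.9 CPM. Control sample 3 lay below mutant samples 1 and 2, and mutant sample 3 was the lowest of all, so the groups overlapped. The means were 93.2 ± 39.3 and 43.2 ± 20.4 CPM (SD, n = 3 each), a level 2.16-fold lower in the mutant. The log2 change of -1.11 (95% interval -2.20 to -0.02) passed the study threshold but not the adjustment (adjusted p = 0.237, edgeR's quasi-likelihood test). It no longer passed that threshold in limma, with the length and GC offset (-0.58), or without control sample 1, control sample 2, mutant sample 1 or mutant sample 3. The direction was kept in each of these fits.

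Fgfr4, the receptor that serves FGF15 signalling in liver, was the scarcest of the 5 genes. It lies on chromosome 13 from 55152640 to 55168759, on the plus strand. It had 105, 97 and 52 counts in the controls and 23, 11 and 26 counts in the mutants. The means were 2.41 ± 0.809 and 2.86 ± 2.05 CPM (SD, n = 3 each). Both the highest sample, mutant sample 1 at 5.02 CPM, and the lowest, mutant sample 2 at 0.939 CPM, were mutants. The log2 change of 0.23 had a 95% interval from -2.02 to 2.49 (adjusted p = 0.934, edgeR's quasi-likelihood test), so that a change of several fold in either direction was not detectable at this depth. Its direction turned with total counts alone and without control sample 3 or mutant sample 1.

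Fgfrl1, the receptor without a kinase domain, was nearly constant over the control samples and rested on 1 sample in the mutants. It lies on chromosome 5 from 108692382 to 108706924, on the plus strand. Its level was 27.1, 27.4 and 24.0 CPM in the controls and 30.1, 8.88 and 26.7 CPM in the mutants. Mutant sample 2 was far below the other 5 samples, which lay between 24.0 and 30.1 CPM. The means were 26.2 ± 1.86 and 21.9 ± 11.4 CPM (SD, n = 3 each), with a log2 change of -0.26 (95% interval -1.34 to 0.81, adjusted p = 0.830, edgeR's quasi-likelihood test). Without mutant sample 2 the log2 change was 0.11.

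Over the 5 genes, 4 had a lower fitted level in the mutant, and 2, Fgfr1 and Fgfr3, passed the study threshold, which 8.92% of all genes tested passed in that direction. At an adjusted p under 0.05, edgeR and limma called 0 of the 5 and DESeq2 called 1, Fgfr1. At an unadjusted p under 0.05, edgeR called Fgfr1 and Fgfr3, 2 of the 5, where it called 9.13% of all genes as lower. In edgeR's test 3.06% of all genes were called lower at an adjusted p under 0.05. The median log2 change of all genes tested was -0.040. Fgfr1 passed the study threshold under all 15 alternatives, and in no fit was a receptor gene past it in the higher direction.

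**Figure D2:**
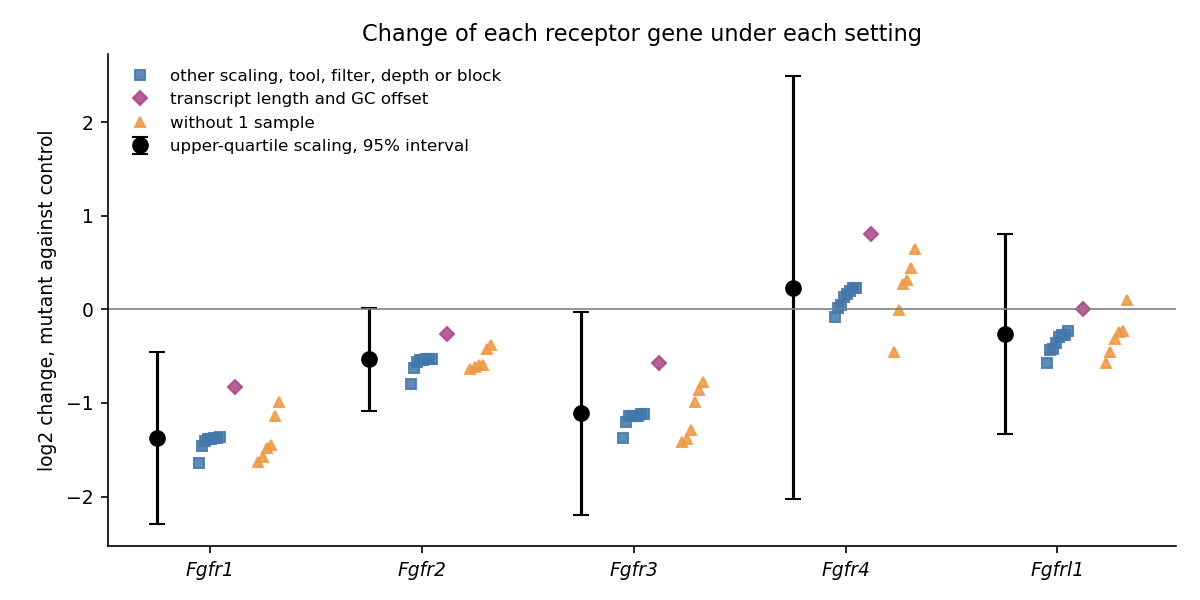
Log2 change of each receptor gene, mutant against control: the black point and bar give the fit with upper-quartile scaling and its 95% interval, squares the other scalings, tools, filters, thinned depth and the replicate block, diamonds the offset for transcript length and GC content, and triangles the fits without 1 sample. Fgfr1, Fgfr2 and Fgfr3 stay below 0 throughout, from -1.64 to -0.83 for Fgfr1, while Fgfr4 and Fgfrl1 cross 0.

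The change of a gene moved with the length of its transcripts in these samples, and the receptor genes differ in length. Protein-coding genes were divided into 4 classes of about equal size by their longest transcript. In the class with the longest, from 4868 bases, the median log2 change was -0.26 over 3450 genes, and Fgfr1 lies there with 5041 bases. Fgfr2 and Fgfr3 lie in the class before it, where the median was -0.23, and Fgfr4 and Fgfrl1 in the class before that, where it was -0.11. In the shortest class, which holds none of them, the median was 0.25. The log2 changes of Fgfr1, Fgfr2, Fgfr3 and Fgfrl1 lay below the median of their class and that of Fgfr4 above it. Only Fgfr1 and Fgfr3 lay below the lower quartile of their class, at -0.69 and -0.70. Fgfr2, Fgfr4 and Fgfrl1 lay between the quartiles of theirs, which were -0.70 and 0.30 for Fgfr2 and -0.64 and 0.43 for the others. The part of the length trend in these changes was not tested beyond the offset.

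Levels of different genes were compared per kilobase of merged exons. In the control samples Fgfr1 was the highest by far, at 63.7 ± 26.3 CPM per kilobase (SD, n = 3). Fgfr3 followed at 13.0 ± 5.50, Fgfrl1 at 9.41 ± 0.667 and Fgfr2 at 9.28 ± 1.63 CPM per kilobase, and these neighbours did not differ beyond their spread. Fgfr4 was the lowest, at 0.680 ± 0.228 CPM per kilobase. With the longest transcript as the length, Fgfr2 stood at 21.6 ± 3.80 CPM per kilobase and above Fgfrl1 at 11.2 ± 0.797, so their order depended on the length used. In the mutant samples Fgfr1 remained the highest at 24.6 ± 8.74 CPM per kilobase of merged exons. Below it, Fgfrl1 at 7.87 ± 4.10, Fgfr2 at 6.40 ± 1.07 and Fgfr3 at 6.04 ± 2.85 CPM per kilobase overlapped, and Fgfr4 was again the lowest at 0.807 ± 0.579. The lowest mutant level of Fgfr1, in mutant sample 1, still exceeded the level of each other receptor gene in that sample.

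Fgfr1 made up most of the signalling receptor transcripts in both genotypes. Its share of the summed level of Fgfr1 to Fgfr4 per kilobase was 68.6, 76.4 and 74.1% in the controls and 51.8, 67.5 and 72.0% in the mutants. Mutant sample 3 lay within the range of the controls. The mean share was 73.0 ± 3.99% and 63.8 ± 10.6% (SD, n = 3 each), a difference of -9.21 percentage points (two-sided exact permutation test, p = 0.2). With 3 samples a group, this test cannot go below 0.1. The share of Fgfr2 was 10.9, 9.09 and 13.8% in the controls and 17.9, 15.2 and 18.4% in the mutants, without overlap, a difference of 5.92 points (two-sided exact permutation test, p = 0.1). The shares of Fgfr3 and Fgfr4 overlapped, with exact permutation p of 0.9 and 0.4. These shares add up to the whole within each sample, so that a lower share of 1 receptor raises the others.

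**Figure D3:**
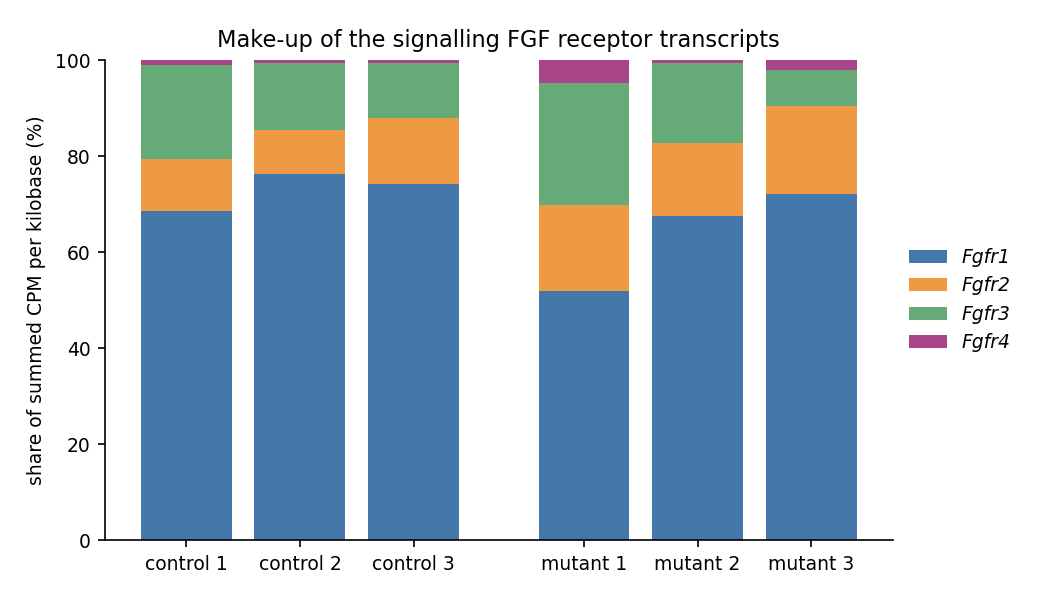
Share of each signalling receptor gene in their summed CPM per kilobase of merged exons (%), 1 stacked bar per sample. Fgfr1 fills 68.6 to 76.4% of the control and 51.8 to 72.0% of the mutant bars, and the Fgfr2 segment is larger in each mutant than in each control sample.

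The ratio of counts of 2 genes within a sample does not depend on how libraries are scaled. There were 6.04, 8.03 and 5.13 counts of Fgfr1 per count of Fgfr2 in the controls and 2.76, 4.26 and 3.74 in the mutants, which did not overlap. The mean log2 ratio differed by -0.83 (two-sided exact permutation test, p = 0.1, adjusted p = 0.4 over 4 ratios). Fgfr1 per count of Fgfr3 was 4.86, 7.56 and 8.96 in the controls and 2.82, 5.56 and 13.2 in the mutants. The mutants spanned the controls on both sides, with a log2 difference of -0.22 (exact permutation test, p = 0.9). Per count of Fgfrl1 there were 19.5, 33.8 and 18.1 counts of Fgfr1 in the controls and 4.93, 35.8 and 9.80 in the mutants, and mutant sample 2, where Fgfrl1 was low, stood above all controls. The log2 differences were -0.93 for Fgfrl1 (exact permutation test, p = 0.4) and -1.37 for Fgfr4 (exact permutation test, p = 0.3), both with overlap.

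**Figure D4:**
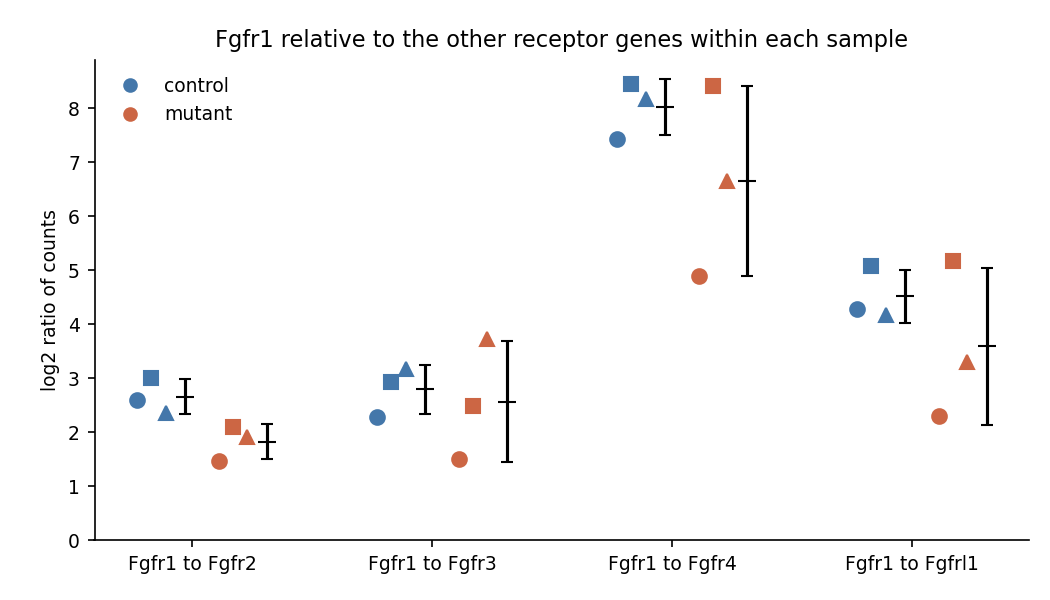
Log2 ratio of the counts of Fgfr1 to those of each other receptor gene within each sample; symbols mark the sample number, colours the genotype, and black bars the mean and SD of 3 samples. Only the ratio to Fgfr2 separates the genotypes, with log2 values of 2.36 to 3.00 in the controls and 1.47 to 2.09 in the mutants.

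Within the genotypes, the receptor genes spread to very different degrees. Among control samples the SD of log2 CPM was 0.10 for Fgfrl1, 0.24 for Fgfr2, 0.57 for Fgfr1, 0.52 for Fgfr4 and 0.73 for Fgfr3, against a median of 0.32 over the 9707 genes with at least 10 CPM. Among mutant samples it was 0.25 for Fgfr2, 0.57 for Fgfr1, 0.85 for Fgfr3, 0.97 for Fgfrl1 and 1.16 for Fgfr4, against a median of 0.47. Fgfr2 was thus the steadiest of the signalling receptors in both genotypes, and Fgfr1 spread by more than the median gene in both. The highest control sample held 2.13 times the Fgfr1 of the lowest, and the highest mutant sample 2.14 times that of the lowest.

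The genes whose profile over the 6 samples was nearest to each receptor gene were found from the root mean square difference of centred log2 CPM among the 9707 genes. For Fgfr1 these were Antxr2, Igsf3 and Loxl4, at differences of 0.15, 0.16 and 0.17. Loxl4, a lysyl oxidase of the extracellular matrix, had 36.7, 72.9 and 27.2 CPM in the controls and 10.7, 26.6 and 23.4 CPM in the mutants, with the same high control sample 2 and low mutant sample 1 as Fgfr1. For Fgfr2 the nearest were Clic4, Tab2 and Piezo2, at 0.061, 0.070 and 0.072. For Fgfr3 they were Cadps2, Rasgrf2 and Ust, at 0.18, 0.20 and 0.22, all low in control sample 3 and mutant sample 3. Snx10 and Pla2g4a were among the nearest to Fgfr4, at 0.21 and 0.23, and Brox, Ifi30 and Oga were nearest to Fgfrl1 at 0.11 to 0.14 with the same low mutant sample 2. These likenesses describe 6 libraries that share depth and genotype differences, and were given no test.

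The genes that act with the receptors were read from the same fit, beginning with the ligands. Of 18 FGF ligand genes listed, 9 were in the table and 7 were tested, with a median log2 change of 0.10 against -0.040 for all genes. Fgf1, a ligand that binds all signalling FGF receptors and the highest of these, had 15.3, 27.9 and 22.0 CPM in the controls and 13.5, 27.0 and 29.1 CPM in the mutants, which overlapped. None of the 7 was called by edgeR at an adjusted p under 0.05 (0 at an unadjusted p under 0.05), and neither DESeq2 nor limma called any at an adjusted p under 0.05. Of all genes, edgeR called 3.06% as lower at an adjusted and 9.13% as lower at an unadjusted p under 0.05. As higher, it called 589 of the 15826 genes at an adjusted p under 0.05, and 10.9% passed the study threshold. Fgf2 had 8.07, 9.26 and 5.78 CPM in the controls and 0, 3.59 and 1.31 CPM in the mutants. DESeq2 gave Fgf2 an unadjusted p under 0.05. Fgf9 lay apart in the other direction, with 2.18, 2.31 and 4.05 CPM in the controls and 8.95, 6.66 and 6.15 CPM in the mutants. Both were chosen after their values were seen.

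Among co-receptors and heparan sulfate genes, 26 of 29 were tested, with a median log2 change of -0.41. In this list 4 genes passed the study threshold as lower and 1 as higher, where 8.92 and 10.9% of all genes did. Ext2, which extends the heparan sulfate chain, had 144, 137 and 142 CPM in the controls and 81.0, 83.4 and 80.1 CPM in the mutants, without overlap. Its log2 change was -0.79 (adjusted p = 0.0525, edgeR's quasi-likelihood test), and DESeq2 and limma called it at an adjusted p under 0.05. Flrt1, which encodes a membrane protein that binds FGF receptors, had 2.51, 2.42 and 2.54 CPM in the controls and 0 counts in each mutant. This is at least 6.15-fold lower against a floor of 3 counts per mutant library, which covers counting error only. Genes at higher levels also had 0 counts in a mutant sample. Sos1 held 16.3 to 29.9 CPM in the controls and 0 in mutant sample 1. The fold given for Flrt1 is thus not a firm bound. The sulfotransferases Ndst1 and Ndst2 were the others that were lower. Sdc4, a heparan sulfate proteoglycan of the cell surface, was higher, with 189, 146 and 115 CPM in the controls and 275, 244 and 212 CPM in the mutants (log2 change 0.70, adjusted p = 0.178, edgeR's quasi-likelihood test).

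Among receptor adaptors and kinases, all 24 were tested, with a median log2 change of -0.35, and 3, or 12.5%, passed the study threshold as lower (8.92% of all genes) and 0 as higher (10.9% of all genes). Mapk3, which encodes the kinase ERK1, had 130, 109 and 99.2 CPM in the controls and 51.5, 55.2 and 58.3 CPM in the mutants. These groups were well apart, with a log2 change of -1.03 (adjusted p = 0.0459, edgeR's quasi-likelihood test). Crkl, an adaptor protein, was also among the genes that were lower. Frs2, the adaptor that binds the receptors directly, had 48.5, 55.9 and 50.4 CPM in the controls and 19.0, 52.3 and 17.1 CPM in the mutants, with mutant sample 2 at the control level, and did not pass. Frs2 was chosen for its role after its values were seen.

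Feedback inhibitors and target transcription factors, which FGF signalling is known to induce, were read next. Of 11 feedback inhibitors tested, with a median log2 change of -0.042, 1, or 9.09%, passed the study threshold as lower (8.92% of all genes). As higher, 0 passed (10.9% of all genes). The 1 gene, Dusp4, had 1.28, 1.43 and 1.47 CPM in the controls and 0 counts in each mutant. This is at least 3.45-fold lower against a floor of 3 counts per mutant library, again for counting error only. Of 11 target transcription factors tested, with a median of -0.32, edgeR called 0 at an adjusted p under 0.05, 0 at an unadjusted p under 0.05, and DESeq2 and limma called 0. Over all genes, edgeR called 3.06% as lower at an adjusted and 9.13% as lower at an unadjusted p under 0.05. As higher, it called 589 of the 15826 genes at an adjusted p under 0.05, and 10.9% passed the study threshold. With 11 genes, 0 calls at the adjusted p therefore says little about this list. Ccnd1, the highest of them by mean CPM over all 6 samples, had 114, 87.1 and 141 CPM in the controls and 127, 109 and 78.8 CPM in the mutants. Over these 5 lists together, the study threshold was passed by 8 of 79 genes as lower and by 1 as higher, and 3 were lower at an adjusted p under 0.05. These 8 are 10.1% of the genes, near the 8.92% of all genes, whereas the 1 higher gene is 1.27%, against 10.9% of all genes. The 3 are 3.8%, near the 3.06% of all genes. The 3 were Flrt1, Mapk3 and Dusp4. At an adjusted p under 0.05, edgeR called 0 of the lists' genes without a filter on low counts. The same held with control counts thinned and with the length and GC offset. With 1 sample left out, 0 to 1 of all the lists' genes were called.

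Other receptor tyrosine kinases were read beside the FGF receptors. Of 45 listed, 39 were tested, with a median log2 change of -0.46, and 5 were lower and 0 higher past the study threshold. This is 12.8% lower, against 8.92% of all genes, and 0 higher, against 10.9% of all genes. These were Pdgfrb, Mst1r, Axl, Tyro3 and Ephb3, of which Mst1r, at 0 counts in each mutant and at most 1.51 CPM in a control sample, had an adjusted p under 0.05 in edgeR and limma. DESeq2 called Tyro3 in place of Mst1r, and edgeR called 0 of the list at an adjusted p under 0.05 without a filter on low counts, with control counts thinned, with the offset and with any 1 sample left out. Tyro3, a receptor of the TAM family, had 26.2, 29.2 and 18.3 CPM in the controls and 7.86, 11.2 and 10.7 CPM in the mutants, with a log2 change of -1.31 (adjusted p = 0.107, edgeR's quasi-likelihood test). Its change was about as large as that of Fgfr1.

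**Figure D5:**
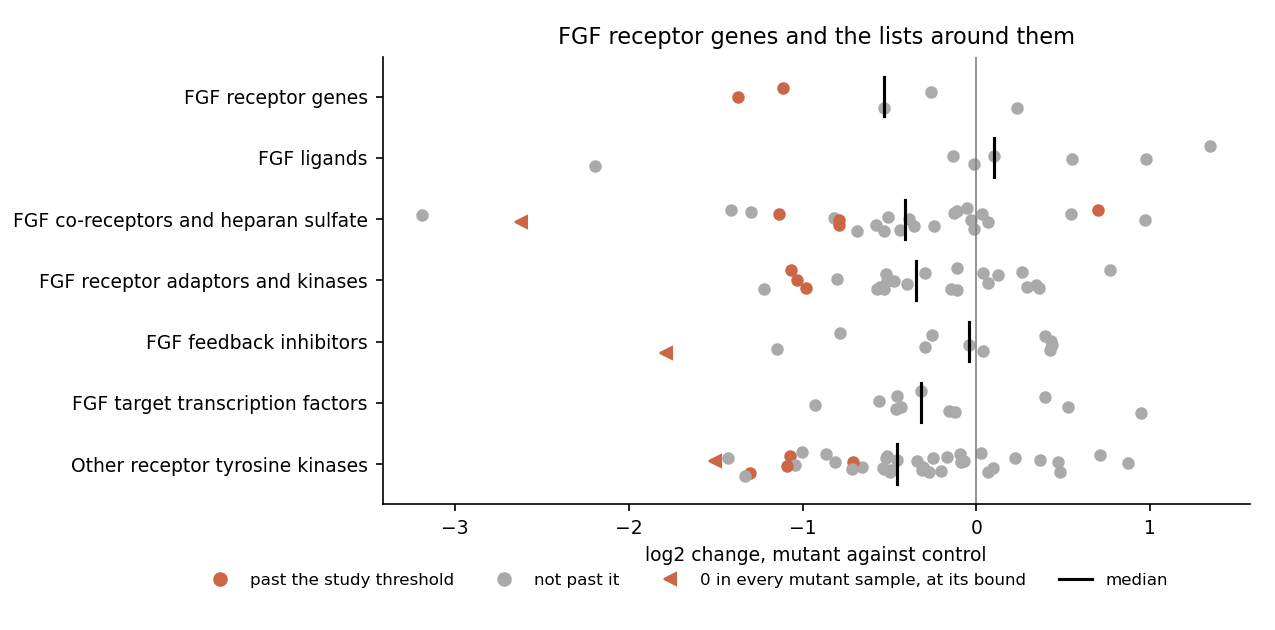
Log2 change, mutant against control, of the receptor genes and of each tested gene of the 6 lists around them. Each gene is 1 point with random vertical shift. Coloured points passed the study threshold, and black lines give medians. Triangles mark genes at 0 in every mutant sample, drawn at their bound for counting error only. Fgfr1 at -1.37 and Fgfr3 at -1.11 lie beyond the medians of the lists, which run from -0.46 to 0.10.

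Markers of the cell types in the tissue were read beside the receptor genes. All 7 pan-mesenchyme markers had a negative log2 change, none was at 0 in any sample, and their summed level was 26105 to 64967 CPM in the controls and 21496 to 27969 CPM in the mutants. These changes ran from -1.12 for Col1a2 to -0.0005 for Vim, which was thus level between the groups. Most of each sum was Col1a1, so the sum follows collagen more than the number of mesenchymal cells. Control sample 2 had both the highest sum, led by Col1a1 at 50909 CPM, and the highest Fgfr1. Per 1000 CPM of these markers, Fgfr1 was 20.3, 14.2 and 13.7 CPM in the controls and 5.31, 14.8 and 9.37 CPM in the mutants, which overlapped through mutant sample 2. The Gli1-lineage and proximal mesenchyme markers summed to 903 to 1323 CPM in the controls and 853 to 1066 CPM in the mutants, with 8 of 15 negative and Barx1, Foxd1 and Tac1 at 0 in some sample. Per 1000 CPM of these, Fgfr1 was 400, 879 and 480 CPM in the controls and 139, 323 and 307 CPM in the mutants, without overlap. Gli1 itself, the gene that drives Cre, had 22.6, 23.8 and 33.4 CPM against 10.9, 24.6 and 22.8 CPM, which overlapped. Of the 15 markers, 2 passed the study threshold as lower (8.92% of all genes) and 0 as higher (10.9% of all genes). Ptch1 had 199, 261 and 305 CPM in the controls and 169, 152 and 142 CPM in the mutants. Foxd1, the other, was at 3.18 CPM or less in each sample. At an adjusted p under 0.05, edgeR called 0 of the 15, limma called Foxd1 and DESeq2 called both. The part of the cell composition in the receptor changes was not tested.

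Amelx, the main enamel matrix gene, was at 15184 CPM or more in all 6 samples. This shows that each held enamel-forming tissue, but does not check that the dissection kept to the proximal end. For the epithelial and other cells, the sums are given as ranges. Dental epithelium markers, led by Krt5, summed to 2316 to 4718 CPM in the controls and 2193 to 2430 CPM in the mutants, and control sample 3, the highest, was the control with the lowest Fgfr3 and Fgfr2. Ameloblast markers, led by Amelx, summed to 85937 to 120405 CPM in the controls and 34717 to 74834 CPM in the mutants, without overlap, although the 2 of 7 members past the study threshold, Odam at a log2 change of 1.76 and Amtn at 0.91, were higher. Odontoblast markers, led by Bglap, summed to 5925 to 13499 and 8471 to 11172 CPM. Dental follicle markers, led by Ptn, overlapped at 903 to 1258 and 1227 to 1520 CPM, with 7 of 8 positive. Endothelial markers, with Cdh5 among them, summed to 207 to 300.2 CPM in the controls and 152 to 243 CPM in the mutants, and macrophage and leukocyte markers to 146 to 426 and 327 to 403 CPM. Osteoclast markers, led by Ctsk, summed to 135 to 254 CPM in the controls and 147 to 555 CPM in the mutants. Schwann cell markers summed to 29.0 to 47.3 and 24.0 to 99.5 CPM. Both overlapped, and mutant sample 1 was the highest for both. Skeletal muscle markers, led by Acta1, ran from 8.77 to 2692 CPM in the controls and from 158 to 6093 CPM in the mutants, with mutant sample 1 at the top. Erythroid markers, led by Hbb-bs, summed to 380 to 823 CPM in the controls and 926 to 2559 CPM in the mutants, without overlap. Their members did not move together: Hba-a1 was lower, with 203, 174 and 110 CPM in the controls and 18.3, 45.6 and 53.7 CPM in the mutants, a log2 change of -2.04 (adjusted p = 0.0460, edgeR's quasi-likelihood test). Hba-a1 and Hba-a2 are near-identical and can share reads, so their separate levels are uncertain. The part of these cell types in the receptor values was not tested.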

How the data were processed

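Single reads from the proximal incisor were trimmed and aligned to mm10 (GRCm38) in Partek Flow by the authors, who deposited unnormalized estimated counts for each gene. The submitters' processing notes also name TopHat2 2.0.8. The counting model and the annotation are not given in the sources used here. Between 21.8 and 53.9% of a sample's values were fractional, and values were rounded to whole numbers. The authors' table of their own comparison (p-values, adjusted p-values, ratios, signed folds and group means, after upper-quartile scaling) was not used.

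edgeR 4.0.16 in R 4.3.3 was run over all samples with upper-quartile scaling, a minimum count of 10 and total of 15, no term but genotype, and its quasi-likelihood test, two-sided, with p-values adjusted by Benjamini-Hochberg. limma 3.58.1 and DESeq2 1.42.0 were alternatives, as were TMM, total counts, other filters, control counts thinned to 9484806, an offset for transcript length and GC content, the replicate number as a block and the fits without each sample. The main edgeR fit and the length and GC offset were tested on simulated data with the same dispersion in both groups, and the other fits were not. The F statistic of each fold change gave its standard error and interval. Log2 CPM used a prior count of 2. Shares and ratios were compared by exact permutation. Gene models, transcript sequences and lengths came from GENCODE M21 on GRCm38, and the span of Fgfr2 from RefSeq on GRCm38.p6. The authors' gene models can differ.

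A count of 0 allows up to 3 counts, or 0.655 CPM in mutant sample 1 and 0.0867 CPM in control sample 3, which covers counting error only. The members, gene lists and tests were chosen with earlier results of these data known. Genes named outside the receptors were up to 2 higher and 2 lower genes with the smallest p past the study threshold in each pathway list (or its highest gene), the highest gene of each marker list, Gli1, and the 3 nearest profiles of each receptor gene. The other genes named were chosen after their values were seen. Some items that this rule selects are not reported here.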

Additional observations from a re-analysis of the deposited data

How the results depend on the processing

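For the receptor genes, the log2 change of Fgfr1 ran from -1.63 to -0.99 across the fits without 1 sample, that of Fgfr2 from -0.64 to -0.38, that of Fgfr3 from -1.42 to -0.78, that of Fgfr4 from -0.45 to 0.65 and that of Fgfrl1 from -0.58 to 0.11. Fgfr1 was lowest without mutant sample 2 and highest without control sample 2. DESeq2 called Fgfr1 (-1.41, adjusted p = 0.00323), and the cause was not tested. Fgfr4 reversed with total counts only (-0.081), without control sample 3 (-0.0087) and without mutant sample 1 (-0.45), and Fgfrl1 with the length and GC offset (0.0061) and without mutant sample 2 (0.11). The log2 ratio of Fgfr1 to Fgfr3 was 0.31 without mutant sample 1, and -0.80 at its lowest. The ratio to Fgfr2 ran from -0.98 to -0.66 without 1 sample, that to Fgfr4 from -2.25 to -0.49 and that to Fgfrl1 from -1.72 to -0.29. The share of Fgfr1 differed by -13.3 to -3.23 points.

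The same-numbered samples deviated together by correlations of only 0.047, 0.0094 and 0.055, so they share a number and no more. With the replicate number as a block, Fgfr1 was at -1.37 (adjusted p = 0.0552, edgeR), Fgfr3 passed at -1.14 (adjusted p = 0.0422, edgeR), 76 of all genes were lower at an adjusted p under 0.05 and 0 of the FGF pathway genes.

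Of all genes, 589 were higher and 485 lower at an adjusted p under 0.05, and 1726 and 1411 past the study threshold. At an adjusted p under 0.05, 1109 were higher in DESeq2. The numbers higher and lower were 210 and 19 without a filter, 322 and 48 when genes needed a mean of 50 counts, 340 and 48 with control counts thinned, and 112 and 35 with the length and GC offset. Past the study threshold, 2335 were lower with total counts only and 2483 without a filter, and 1014 were higher with the offset. Without 1 sample, the adjusted counts ran from 73 to 471 higher and from 2 to 135 lower, and the study counts from 1237 to 2110 and from 777 to 2826, with control sample 3 and mutant sample 2 the most influential at the study threshold for lower genes. Of the FGF pathway genes, 0 were called at an adjusted p under 0.05 without a filter, when genes needed a mean of 50 counts, with thinned counts or with the offset. With total counts only, 5 were lower at an adjusted p under 0.05, and 20 lower and 0 higher past the study threshold. Without 1 sample, from 0 to 1 were lower at an adjusted p under 0.05 (0 higher), and 7 to 18 lower and 0 to 1 higher past the study threshold.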
